A study of Mus musculus with 31 samples.

Results

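The 35 genes described here are expressed by oligodendrocytes and encode myelin proteins, the enzymes and channels that serve myelin, and the transcription factors of the lineage. They were listed by name as genes of the cell type, with earlier results of these data known, and all 35 were found among the 52636 gene identifiers of the table. Levels came from the caudate putamen (CPu), the dorsal striatum, of 31 female mice aged 8–11 weeks, from a C57BL/6NTac line in which 1 copy of *Brd1*, encoding a chromatin reader protein, carries a constitutive deletion. The groups were wild-type (WT) mice on vehicle, which was saline (n = 8), *Brd1*+/- mice on vehicle (n = 7), and 8 WT and 8 *Brd1*+/- mice that received the antidepressant imipramine (IMN) at 10 mg/kg. By the paper's design each mouse was injected under the skin on each test day, before tail suspension and then before open field and forced swim tests. Brains were collected 1 hour after the swim. Dosing was thus short-term, and all groups had been through these tests. WT mice were litter matched, the deletion is present in every cell type, and the tissue was a punch of the right CPu, so each value averages all cells of 1 mouse's punch. The question was whether oligodendrocyte genes differed with genotype, with IMN, or in the response of the genotypes to IMN.

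Oligodendrocytes wrap axons in compact membrane rich in a few abundant proteins and in galactolipids, and in the striatum much of this myelin lies in the fibre bundles that cross the grey matter. The lineage is specified by the factors Olig1, Olig2 and Sox10, while Myrf and Nkx6-2 act in cells that mature and myelinate. In RNA from a whole punch, fewer oligodendrocytes and less RNA per oligodendrocyte cannot be told apart.

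The members lie on 17 chromosomes, and *Olig2* and *Olig1* are neighbours at chr16:91225457-91228677 and chr16:91269772-91271933 (GRCm38). Promoter sequence from RefSeq (GRCm38.p6) was matched by symbol for 26 of the 35 members. Short motifs were searched on both strands in the 250 bases before each start: ACAAAG, a sequence bound by Sox proteins, CAGCTG, an E-box of the kind bound by Olig factors, and CTGGCAC, a sequence bound by Myrf. No motif contains another. ACAAAG was present in the promoters of 9 of the 26 genes (12 of their 37 promoters, 32.4%), against 16.5% of 32536 distinct promoter sequences of the whole table. The members' 37 promoters were counted without removal of repeated sequences. CAGCTG was present for 3 of the 26 genes (10.8% of promoters, against 13.1%) and CTGGCAC for 5 (16.2% of promoters, against 4.21%). These counts are a description, and a match is not evidence of binding. The promoters of the most abundant member (*Mobp*), of the member that passed the test below (*Apod*) and of the member that followed the others least (*Gamt*) are shown for the 200 bases from 250 to 51 before the start, with motif matches on either strand in capitals. They are *Mobp* at chr9:120149492-120149691 (plus strand), *Apod* at chr16:31314859-31315058 (minus strand) and *Gamt* at chr10:80261063-80261262 (minus strand).
Mobp: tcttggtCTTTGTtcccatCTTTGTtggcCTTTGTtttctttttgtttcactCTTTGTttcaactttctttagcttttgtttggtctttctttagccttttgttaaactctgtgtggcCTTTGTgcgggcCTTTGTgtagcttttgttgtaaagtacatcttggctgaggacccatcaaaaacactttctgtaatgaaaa
Apod: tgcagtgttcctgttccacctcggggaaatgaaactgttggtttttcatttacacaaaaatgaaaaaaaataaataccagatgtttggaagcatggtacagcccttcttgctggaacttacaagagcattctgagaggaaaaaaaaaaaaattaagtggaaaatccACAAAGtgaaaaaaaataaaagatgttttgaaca
Gamt: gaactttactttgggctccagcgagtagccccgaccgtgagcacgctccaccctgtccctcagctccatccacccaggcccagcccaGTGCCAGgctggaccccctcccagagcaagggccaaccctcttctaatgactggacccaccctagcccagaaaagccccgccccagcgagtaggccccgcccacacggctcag
*Mobp* held 6 matches of ACAAAG, the first of them 243 bases before the start, and *Apod* held 1, at 84 bases before the start. *Gamt* held 1 match of CTGGCAC, at 163 bases before the start.

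Levels are given as TPM, an abundance unit scaled to a fixed total per mouse. TPM are also scaled to gene length and can be compared between genes. Together the members made up a median of 0.313% (WT) and 0.280% (*Brd1*+/-) of all TPM under vehicle, and of 0.383% (WT) and 0.380% (*Brd1*+/-) under IMN. The highest share was 1.07% (vehicle administered WT mouse 1) and the lowest 0.152% (IMN administered *Brd1*+/- mouse 6). Mean levels over all mice ran from 8.33 TPM for *Klk6* to 1035 TPM for *Mobp*, and 10 members had a mean of at least 100 TPM.

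The myelin membrane and adhesion proteins held the top ranks. *Mobp*, a cytoplasmic protein of the compact sheath, had a lowest, median and highest level of 441, 842 and 2825 TPM (WT vehicle), 394, 744 and 1142 TPM (*Brd1*+/- vehicle), 439, 994 and 1531 TPM (WT IMN), and 354, 1101 and 2376 TPM (*Brd1*+/- IMN). *Mbp*, which holds the cytoplasmic faces of the membrane together, had 227, 417 and 1419.5 TPM, then 189, 380 and 558 TPM, 203, 523 and 744 TPM, and 254, 491 and 1335 TPM in the same order of groups. For both genes the 4 groups overlapped in their lower range, and the highest mice belonged to the WT vehicle and *Brd1*+/- IMN groups. The mean was 1035 ± 574 TPM (SD, n = 31) for *Mobp* and 544 ± 321 TPM for *Mbp*, and *Mobp* was above *Mbp* in each of the 31 mice. *Cnp* (252 ± 133 TPM), an enzyme that keeps cytoplasmic channels in the sheath open, *Mal* (215 ± 123 TPM), a proteolipid of membrane sorting, and *Apod* (199.7 ± 96.9 TPM), a secreted lipid carrier, came next. *Cnp* was above *Mal* in each of the 31 mice, while *Mal* was above *Apod* in 17 of them. *Cldn11*, the tight junction protein of myelin, was at 191 ± 116 TPM, and *Mag*, the adhesion molecule facing the axon, at 152 ± 86.1 TPM. *Mog*, on the outermost lamella, had lowest, median and highest levels of 38.6, 61.5 and 188 TPM (WT vehicle), 31.3, 51.9 and 91.0 TPM (*Brd1*+/- vehicle), 29.6, 66.2 and 109.5 TPM (WT IMN), and 23.2, 67.1 and 158 TPM (*Brd1*+/- IMN). In each group its range from lowest to highest mouse was wider than the differences between the group medians. *Tspan2* (65.1 ± 36.0 TPM), *Pllp* (61.8 ± 35.3 TPM) and *Opalin* (24.7 ± 15.7 TPM) encode smaller membrane proteins of myelin.

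Among genes of cytoskeleton and cell shape, *Bcas1*, a marker of oligodendrocytes that have begun to myelinate, was the highest at 125 ± 66.7 TPM, followed by *Ermn* (42.1 ± 25.9 TPM), *Gsn* (42.0 ± 18.3 TPM), *Ppp1r14a* (30.4 ± 20.2 TPM) and *Anln* (22.9 ± 12.6 TPM), the last 4 overlapping throughout. The gap junction connexins *Gjc3* (36.5 ± 20.3 TPM) and *Gjb1* (22 ± 13.5 TPM) overlapped in range, although *Gjc3* was above *Gjb1* in each mouse. Among genes of lipid and small-molecule metabolism, *Qdpr*, which regenerates a cofactor of aromatic amino acid hydroxylases, had 131 ± 41.6 TPM. *Fa2h* (57.9 ± 34.5 TPM) and *Ugt8a* (32.3 ± 17.5 TPM) make the hydroxylated fatty acids and galactolipids of myelin, and *Aspa* (19.4 ± 11.7 TPM) splits N-acetylaspartate. *Gamt*, the second enzyme of creatine synthesis, had the narrowest spread of all members: 15.0, 29.5 and 40.6 TPM (WT vehicle), 20.9, 28.6 and 37.1 TPM (*Brd1*+/- vehicle), 26.4, 29.9 and 39.4 TPM (WT IMN), and 19.4, 33.1 and 37.9 TPM (*Brd1*+/- IMN).

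Of the transcription factors, *Olig1* was the most abundant at 89.3 ± 40.4 TPM, ahead of *Myrf* (36.6 ± 25.0 TPM), *Sox10* (35.3 ± 19.2 TPM), *Olig2* (23.2 ± 11.5 TPM) and *Nkx6-2* (12 ± 7.65 TPM). *Sox10* had lowest, median and highest levels of 22.3, 31.5 and 115 TPM (WT vehicle), 18.4, 27.2 and 44.5 TPM (*Brd1*+/- vehicle), 15.8, 33.8 and 41.7 TPM (WT IMN), and 14.6, 32.2 and 68.4 TPM (*Brd1*+/- IMN). The group medians differed by less than the range inside any group. The receptors and membrane proteins *Evi2a* (30.9 ± 17.6 TPM), *Gpr37* (24.9 ± 15.6 TPM) and *Lpar1*, a receptor for lysophosphatidic acid (20.4 ± 11.4 TPM), lay close together. Among secreted proteins and proteases, the iron carrier *Trf* had 165 ± 96.4 TPM, the node of Ranvier link protein *Hapln2* 35.8 ± 21.7 TPM, the aggrecan-cleaving protease *Adamts4* 9.60 ± 5.40 TPM and the kallikrein protease *Klk6* 8.33 ± 4.56 TPM. Some members share exonic bases with other genes, and the strand setting of the counting is not given in the sources used here. *Trf* shares 63.5% of its exonic bases with a gene on the same strand and *Pllp* 54.2% with one on the opposite strand. *Nkx6-2* shares 12.9% with *Inpp5a*, on the opposite strand, which reached 56.7 TPM, so the level of *Nkx6-2* may include reads of *Inpp5a*.

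**Figure D1:**
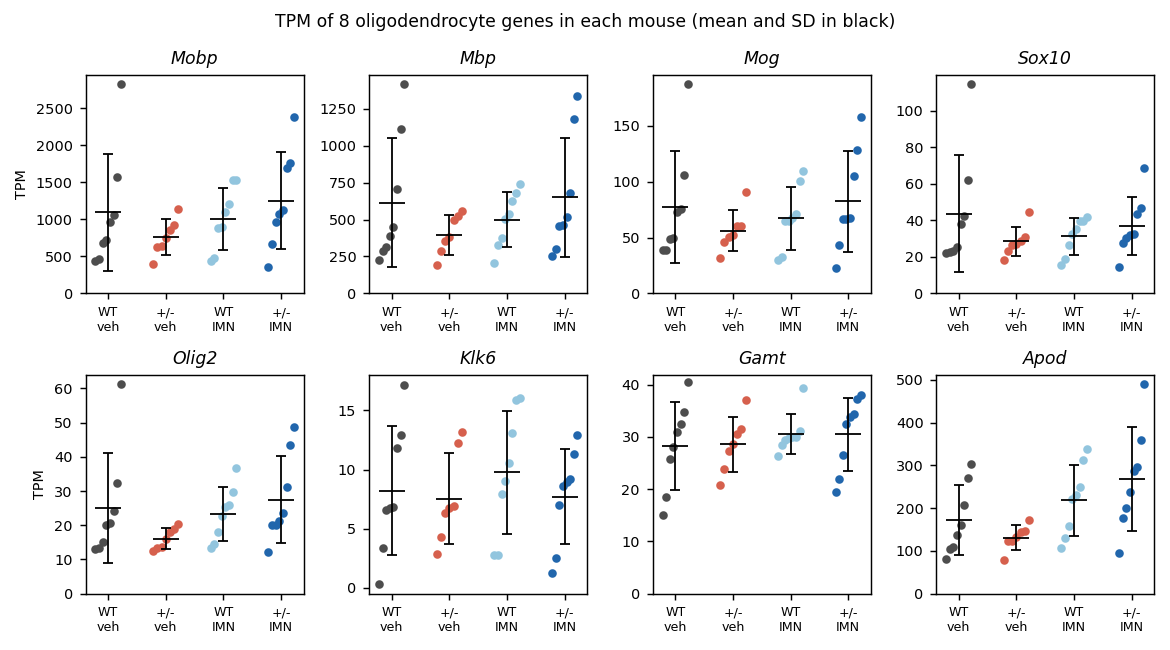
TPM of 8 members (vertical axes, TPM, from 0 or just below) in each of the 31 mice, by group (veh, vehicle; +/-, *Brd1*+/-). Points are mice sorted within a group, black lines are mean and SD, and the 4 groups overlap for all 8 genes, with *Mobp* reaching 2825 TPM in 1 vehicle administered WT mouse.

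The members varied several-fold from mouse to mouse, and did so together. The ratio of the highest to the lowest mouse had a median of 8.53 over the members, from 2.70 for *Gamt* to 50.3 for *Klk6*, which was at 0.342 TPM in vehicle administered WT mouse 2. Vehicle administered WT mouse 1 was the highest mouse for 33 of 35 members, and IMN administered *Brd1*+/- mouse 6 the lowest for 22. The exceptions at the top were *Apod*, highest in IMN administered *Brd1*+/- mouse 2, and *Bcas1*, highest in vehicle administered WT mouse 5. The SD within groups, on the log2(TPM + 1) scale, had a median of 0.72 over the members. Over 12166 genes with a mean of at least 5 TPM the median was 0.23, and 96.5% of these genes had a lower SD than the members' median. Of the 35 members, 33 lay above the 90th percentile of these genes.

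**Figure D2:**
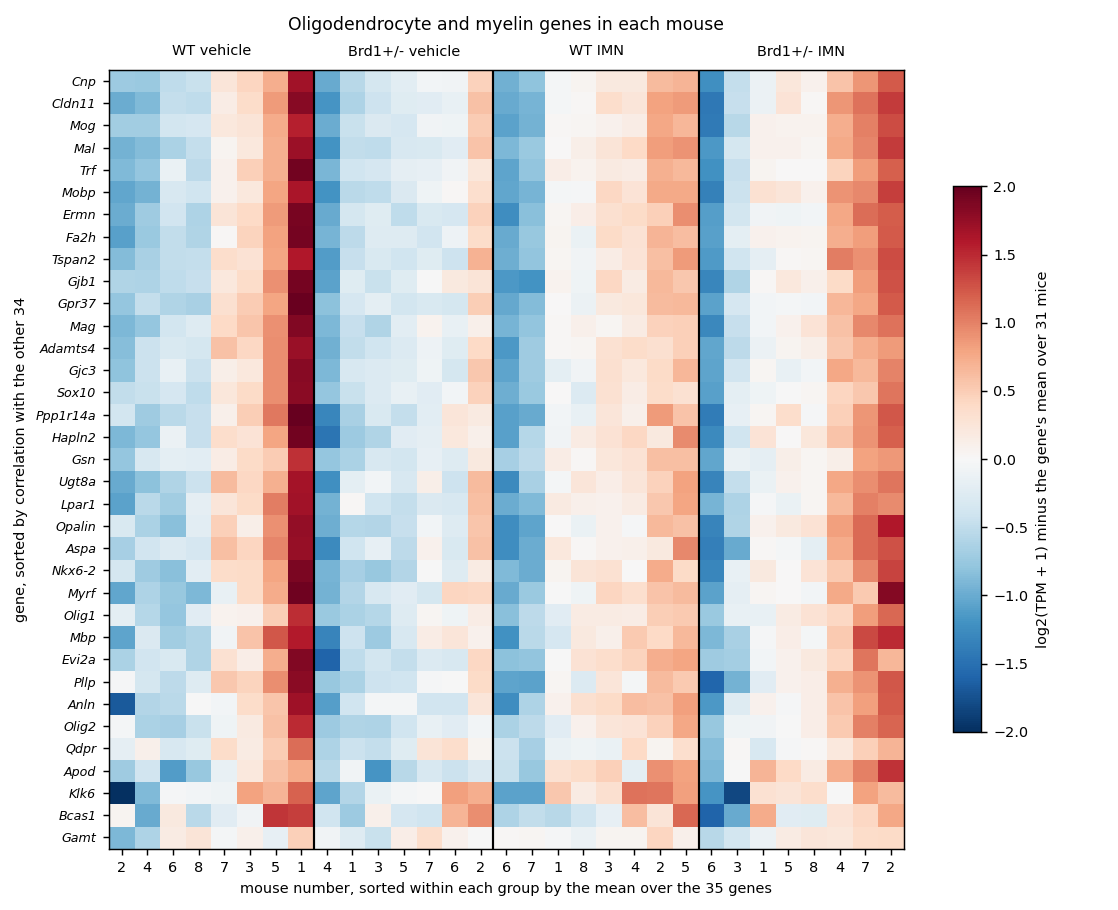
Level of each member in each mouse as log2(TPM + 1) minus the gene's mean over 31 mice (colour, saturated beyond 2 in either direction). Columns are mice, sorted within each group by the mean over the 35 genes, and rows are genes, sorted by their correlation with the other 34; whole columns share a colour, and *Gamt*, *Bcas1*, *Klk6* and *Apod* in the lowest rows depart from it most.

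As a description across the 31 mice, each member was correlated with the mean log2(TPM + 1) of the other 34. Pearson's r had a median of 0.964 (Spearman's rho 0.958) and was at least 0.9 for 30 members. With group means subtracted the median r was 0.968, and without the 2 mice farthest from the median it was 0.951. All values of 1 mouse come from 1 library, and the points share its composition. *Cnp* followed the others most closely (r = 0.995), then *Cldn11* (r = 0.992) and *Mog* (r = 0.989). The 5 members below 0.9 were *Qdpr* (0.867), *Apod* (0.800), *Klk6* (0.773), *Bcas1* (0.755) and *Gamt* (0.609). The transcription factors *Sox10* (0.967), *Nkx6-2* (0.955), *Myrf* (0.949), *Olig1* (0.945) and *Olig2* (0.930) followed the structural genes.

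The same order of mice was seen in oligodendrocyte genes that are no members. The mean of 48 other oligodendrocyte genes had r = 0.976 with the members' mean, and the 25 genes of oligodendrocyte precursors and premyelinating cells had r = 0.865. The 33 genes of myelin lipid synthesis had r = 0.704 and the 22 axonal partners at nodes and paranodes r = 0.400. Of the marker lists of other cell types, astrocytes had r = 0.699, cortical projection neurons 0.358, endothelial and mural cells 0.297, microglia 0.293, choroid plexus and ependyma 0.156, erythrocytes 0.0273, fibroblasts and meninges −0.0682 and striatal projection neurons −0.0918. Without the 2 mice farthest from the median, r was 0.970 for the other oligodendrocyte genes, 0.564 for astrocytes and 0.238 for cortical neurons. It was 0.812 for precursor genes, 0.568 for lipid synthesis and 0.178 for axonal partners. For microglia it was 0.199, for endothelial and mural cells 0.148 and for striatal neurons 0.119. For choroid plexus and ependyma it was 0.0873, for erythrocytes 0.0344 and for fibroblasts and meninges −0.188. Among the members that followed the others least, *Gamt* had r = 0.499 with the other oligodendrocyte genes, 0.455 with striatal and −0.252 with cortical markers, and *Qdpr* 0.879 with the other oligodendrocyte genes, 0.743 with astrocyte and 0.495 with cortical markers, both chosen for their low r after it was seen.

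The tissue label was checked by the same marker lists. The 10 striatal neuron markers summed to between 5050 and 9819 TPM in the mice of the other 3 groups, but to between 276 and 10474 TPM in vehicle administered WT mice. The 10 cortical neuron markers summed to a median of 1500 TPM under vehicle in WT mice (range 8.52–2022) and 134 TPM in *Brd1*+/- mice (21.0–240). Under IMN they summed to 55.7 TPM in WT mice (10.6–1105) and 111 TPM in *Brd1*+/- mice (11.7–399). No marker of either list was at 0 throughout a group. The mean log2(TPM + 1) of the cortical markers was above 4 in 6 of 8 vehicle administered WT mice (1, 2, 3, 4, 5 and 7), in 2 of 8 IMN administered WT mice (5 and 8) and in no *Brd1*+/- mouse, a cutoff set after the values were seen. Vehicle administered WT mouse 2 was lowest for striatal markers, with a mean of 3.20, where vehicle administered *Brd1*+/- mice lay between 8.87 and 9.10. These mice were at both ends for the members: vehicle administered WT mouse 1 had the highest members' mean of all 31 mice (7.29) and mouse 2 ranked 28th (4.86). The comparisons that hold mice above the cutoff are given with and without them. As a check of the genotype labels, *Brd1* had 22.5 and 13.4 TPM in vehicle administered WT and *Brd1*+/- mice and 19.9 and 12.8 TPM under IMN, with no overlap between the genotypes (exact permutation test, p = 0.000155 in each).

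**Figure D3:**
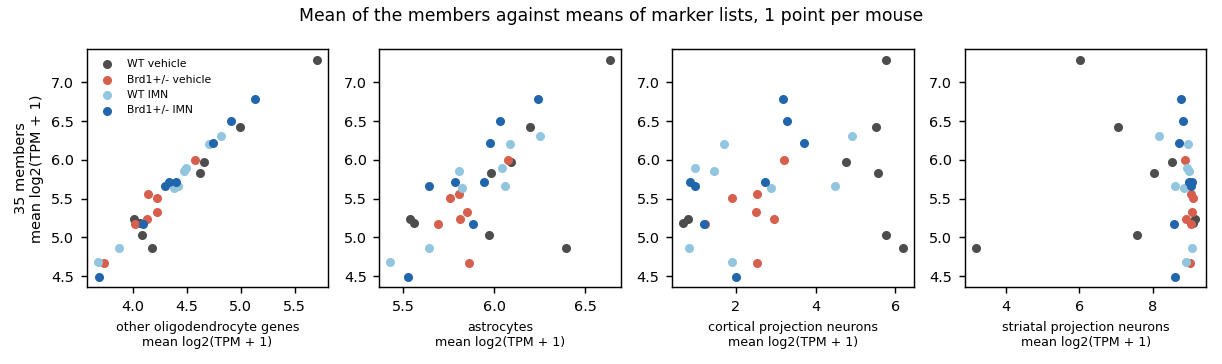
Mean log2(TPM + 1) of the 35 members (vertical axis) against the mean of 4 marker lists (horizontal axes), 1 point per mouse, coloured by group. The members follow the other oligodendrocyte genes (r = 0.976) more tightly than astrocyte markers (r = 0.699), and the vehicle administered WT mice spread along both neuronal axes.

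Between the genotypes under vehicle, none of the 35 members passed the test at either threshold. Fold changes are log2 differences of the mean log2(TPM + 1), tested with limma across all genes. At a nominal p under 0.01, the threshold used by the study, 0 members were called, against 13.6% of the 23200 genes tested. At an unadjusted p under 0.05, limma called 0 members, against 30.9% of all genes, and at a false discovery rate (FDR) of 5% there were 0 members and 0% of genes. With sample quality weights 7 members passed p under 0.05, against 41.2% of all genes. Leaving out WT mouse 2, 4 or 6 gave 2 members each at that threshold, against 27.7%, 28.3% and 35.8% of all genes. Leaving out WT mouse 8 or *Brd1*+/- mouse 2 gave 1, against 38.3% and 28.2%. The members' median fold change was −0.37, with 33 estimates below 0, beside a median of −0.13 over all genes. When TPM were rescaled by median-of-ratios, the median of all genes moved to 0.00 and that of the members to −0.19, with 31 below 0.

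*Pllp* had the smallest p. It was at 37.4, 63.8 and 192 TPM (lowest, median, highest) in WT and 31.6, 40.9 and 71.1 TPM in *Brd1*+/- mice, with a fold change of −0.59 ± 0.30 (SE; 95% interval −1.22 to 0.05, exact permutation p = 0.0925, limma adjusted p = 0.194). Of the 8 WT mice, 4 lay above every *Brd1*+/- mouse, and the other 4 lay inside the *Brd1*+/- range. *Nkx6-2* had a fold change of −0.60 ± 0.34 (interval −1.32 to 0.11, exact permutation p = 0.123, limma adjusted p = 0.234). Its levels were 5.40, 11.3 and 41.2 TPM in WT and 4.96, 6.62 and 11.8 TPM in *Brd1*+/- mice. *Gsn*, an actin-severing protein, had a fold change of −0.46 ± 0.26 (interval −1.0 to 0.09, exact permutation p = 0.122, limma adjusted p = 0.235), from 22.3, 38.7 and 109.5 TPM to 22.4, 30.9 and 44.6 TPM. Without WT mouse 1 the estimates were −0.37 (*Pllp*), −0.36 (*Nkx6-2*) and −0.27 (*Gsn*), and with cortical markers as a covariate −0.21, −0.27 and −0.30. Without the mice of high cortical markers they were 0.13, 0.09 and −0.13.

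By role, the estimates under vehicle ran from −0.59 to −0.32 for the 10 myelin membrane and adhesion proteins, from −0.57 to −0.17 for cytoskeleton and cell shape, from −0.60 to −0.18 for transcription factors, and were −0.39 and −0.37 for the connexins. Estimates above 0 were found only for *Gamt* (0.05, interval −0.34 to 0.45) and *Klk6* (0.08). For *Mobp* the interval was −1.06 to 0.41 and for *Mbp* −1.21 to 0.38, which includes log2 differences beyond −1 as well as 0. Without the 6 vehicle administered WT mice of high cortical markers, which leaves 2 WT mice (6 and 8), the members' median was 0.16 and 29 estimates were above 0. Without mouse 1 alone it was −0.15, without mouse 2 alone −0.51, and with all mice and cortical markers as a covariate −0.13. In no such fit was a member called at p under 0.01.

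Of genes of the same biology that are no members, 3 of 47 other oligodendrocyte genes tested were lower in *Brd1*+/- mice at p under 0.01 under vehicle and 0 higher, with a list median of −0.39. They included *Tmeff2* (−0.67 ± 0.18, limma adjusted p = 0.0556) and *Jam3* (−0.63 ± 0.20, limma adjusted p = 0.0659). Of 32 myelin lipid synthesis genes tested, 9 were lower and 0 higher (median −0.33), among them *Fdps*, of the mevalonate pathway (−0.66 ± 0.19, limma adjusted p = 0.0556), and *Smpd1*, the acid sphingomyelinase (−0.46 ± 0.13, limma adjusted p = 0.0556). The acid sphingomyelinase degrades sphingomyelin, so this list does not hold synthesis genes only. Of 25 precursor and premyelinating genes 1 was lower, *Sulf2* (−1.23 ± 0.34), and 1 higher, *Cacng4* (1.05 ± 0.35). Of 22 axonal partners *Nefl* was lower (−0.84 ± 0.21) and *Adam23* higher (0.42 ± 0.12). Over all genes tested, 2811 were lower and 342 higher at the same threshold. Cortical markers were lower in the same comparison (2 of 10 at p under 0.01 and 7 at p under 0.05, median −2.03) and striatal markers higher (1 and 10 of 10, median 1.63). Of the fibroblast and meningeal markers 1 of 10 was higher at p under 0.01 and 3 at p under 0.05 (median 0.27). At p under 0.05, 6083 of all genes tested were lower and 1085 higher. The part of these cell types in these differences was not tested.

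Under IMN no member passed the test between the genotypes. At p under 0.01 limma called 0 members, against 0.703% of 23339 genes, at an unadjusted p under 0.05 it called 0 against 3.92%, and at an FDR of 5% 0 against 0.00428% (1 gene, *Brd1*). The members' median fold change was 0.16, with 31 of 35 estimates above 0, beside −0.03 over all genes. It ran from 0.01 (without *Brd1*+/- mouse 2, with 22 above 0) to 0.36 (without *Brd1*+/- mouse 6) when single mice were left out. It also moved by over 1.5 times without *Brd1*+/- mouse 4 (0.09) or 7 (0.05), and without WT mouse 5 (0.28), 6 (0.03, with 21 above 0) or 7 (0.04). *Opalin*, a glycoprotein of the paranodal loops, had the smallest p, with 8.37, 21.1 and 33.9 TPM in WT and 7.91, 25.2 and 66.4 TPM in *Brd1*+/- mice (0.41 ± 0.37, interval −0.37 to 1.2, exact permutation p = 0.329, limma adjusted p = 0.998). The *Brd1*+/- range covered the whole WT range. *Olig1* (0.24 ± 0.25, interval −0.28 to 0.76, exact permutation p = 0.386) and *Apod* (0.26 ± 0.30, interval −0.37 to 0.88, exact permutation p = 0.445) followed, both with an adjusted p of 0.998. Leaving out single mice moved *Opalin* between 0.22 and 0.64, *Olig1* between 0.11 and 0.38 and *Apod* between 0.11 and 0.45, in each case lowest without *Brd1*+/- mouse 2 and highest without *Brd1*+/- mouse 6. Without WT mouse 6 they were at 0.26, 0.12 and 0.16, *Apod* was at 0.12 without WT mouse 7, and *Olig1* at 0.15 without *Brd1*+/- mouse 7. Of the related lists, none held a gene at p under 0.01, with medians of 0.12 for the other oligodendrocyte genes, −0.02 for precursor genes, −0.02 for lipid synthesis and −0.05 for axonal partners. Of the marker lists of other cell types, all 5 erythrocyte markers tested were at higher estimates in *Brd1*+/- mice (median 0.49, 1 at p under 0.01 and 5 at p under 0.05), and their part in the members' estimates was not tested. Without the 2 WT mice of high cortical markers the members' median was 0.29, again with none called at p under 0.01.

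From vehicle to IMN in WT mice, no member passed the test. Limma called 0 members at p under 0.01 against 6.95% of 23579 genes, 0 at an unadjusted p under 0.05 against 23.1%, and 0 at an FDR of 5% against 0.00424%. With quality weights 1 member passed p under 0.05 (against 34.9% of all genes), as did 1 with cortical markers as a covariate (6.82%). Without the mice of high cortical markers the count was also 1 (8.75%). The members' median was −0.10, with 27 estimates below 0, beside −0.08 over all genes; after median-of-ratios scaling it was 0.02, with 22 above 0. Its sign rested on single mice: it was above 0 without vehicle administered mouse 1 (0.15, 27 estimates above 0) or 5 (0.01, 20 above 0), or without IMN administered mouse 6 (0.06, 22 above 0) or 7 (0.01, 20 above 0). It was −0.05 without vehicle administered mouse 3, and between −0.23 and −0.17 without vehicle administered mouse 2, 4, 6 or 8 or IMN administered mouse 2 or 5. With cortical markers as a covariate it was 0.16, with 29 above 0, and with quality weights −0.21, with 5 above 0. The smallest p belonged to *Qdpr* (−0.27 ± 0.20, interval −0.69 to 0.14, exact permutation p = 0.22, limma adjusted p = 0.408), at 100, 137 and 274 TPM under vehicle and 78.1, 116 and 164 TPM under IMN. *Pllp* had −0.44 ± 0.33 (interval −1.14 to 0.25, exact permutation p = 0.24, limma adjusted p = 0.428). Without vehicle administered mouse 1 *Qdpr* was at −0.14 and *Pllp* at −0.23, with cortical markers as a covariate at −0.06 and −0.11, and without the mice of high cortical markers at 0.13 and 0.19. *Apod* had the largest positive estimate, 0.38 ± 0.29 (interval −0.24 to 0.99, exact permutation p = 0.245, limma adjusted p = 0.445), at 82.2, 149 and 302 TPM under vehicle and 106, 226 and 338 TPM under IMN, where 2 of 8 IMN administered mice lay above all vehicle administered ones. With cortical markers as a covariate, *Apod* stood at 0.76 ± 0.27 (limma adjusted p = 0.653), with quality weights at 0.18, and without vehicle administered mouse 6 at 0.25. Without the 8 mice of high cortical markers the members' median was 0.28, with 34 estimates above 0 and none called at p under 0.01. In that fit, of 2 vehicle and 6 IMN administered mice, *Apod* stood at 0.99 ± 0.38 (limma adjusted p = 0.517). This comparison and that of the genotypes under vehicle share the vehicle administered WT mice.

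Among related genes in WT mice, 5 of 32 lipid synthesis genes were lower under IMN at p under 0.01 and 0 higher (median −0.30), with *Mvd* (−0.73 ± 0.14, limma adjusted p = 0.132) and *Fasn* (−0.45 ± 0.11, limma adjusted p = 0.141), of the sterol and fatty acid pathways, at the smallest p. Of the axonal partners 2 of 22 were lower, *Nefm* (−0.88 ± 0.22) and *Nefl* (−0.71 ± 0.22), both neurofilament subunits, and of the precursor genes 2 of 25, *Matn4* (−0.63 ± 0.20) and *Tmem108* (−1.08 ± 0.36). None of the 47 other oligodendrocyte genes was called (median −0.19). Over all genes tested, 1321 were lower and 318 higher at the same threshold. In the same comparison all 10 cortical markers had estimates below 0 (median −2.08, 1 at p under 0.01 and 5 at p under 0.05), all 10 striatal markers above 0 (median 1.48, 0 and 8), and all 5 erythrocyte markers tested below 0 (median −0.54, 2 and 4), and their part in these differences was not tested.

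In *Brd1*+/- mice, *Apod* was the 1 member that rose with IMN at p under 0.01, against 1.83% of 23020 genes called in either direction and 0.869% called higher. At an unadjusted p under 0.05, 4 members were higher under IMN, against 7.09% of all genes in either direction and 3.67% higher, and at an FDR of 5% limma called 0 members and 0% of genes. *Apod* encodes apolipoprotein D, which carries arachidonic acid and other small lipids and is made by oligodendrocytes, astrocytes and perivascular cells. It was at 78.6, 134 and 172 TPM under vehicle (lowest, median, highest) and 95.9, 262 and 491 TPM under IMN. Of 8 IMN administered mice 7 lay above every vehicle administered one, and mouse 6 lay inside their range. The mean went from 131 ± 28.7 TPM (SD, n = 7) to 269 ± 121 TPM (n = 8), a fold change of 0.92 ± 0.27 (interval 0.35 to 1.49, exact permutation p = 0.00948, limma adjusted p = 0.426). Over the 15 fits that left out 1 mouse its estimate ran from 0.78 to 1.11, at p under 0.01 in each.

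The other members at p under 0.05 in limma were transcription factors. *Olig2* was at 12.5, 15.9 and 20.4 TPM under vehicle and 12.1, 22.3 and 48.7 TPM under IMN (0.64 ± 0.23, interval 0.14 to 1.13, exact permutation p = 0.027, limma adjusted p = 0.592). *Olig1* was at 49.0, 68.9 and 91.6 TPM and then 49.2, 97.0 and 184 TPM (0.52 ± 0.23, interval 0.03 to 1.02, exact permutation p = 0.0617, limma adjusted p = 0.678). For both, 5 of 8 IMN administered mice lay above all vehicle administered ones. *Nkx6-2* had 0.67 ± 0.30 (interval 0.03 to 1.31, exact permutation p = 0.0681, limma adjusted p = 0.682), and its shared bases with *Inpp5a* apply here too.

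The remaining 31 members had intervals that held 0. The members' median fold change in *Brd1*+/- mice was 0.46, with 33 of 35 estimates above 0, beside 0.01 over all genes. The 10 myelin membrane and adhesion proteins ran from 0.31 to 0.61 (*Mobp* 0.58, interval −0.12 to 1.29; *Mbp* 0.56, interval −0.15 to 1.28), cytoskeleton and cell shape from −0.09 to 0.54, metabolism from 0.08 to 0.51 and the 3 receptors from 0.38 to 0.57. *Bcas1* (−0.09) and *Klk6* (−0.05) were the 2 below 0. These estimates are not independent of each other, since the members moved together from mouse to mouse. One library decided much of the count: without IMN administered *Brd1*+/- mouse 6, the lowest mouse for 22 members, 10 members were called at p under 0.01 (*Apod*, *Fa2h*, *Gsn*, *Hapln2*, *Mag*, *Mobp*, *Nkx6-2*, *Olig1*, *Olig2* and *Ppp1r14a*) against 2.18% of all genes, 26 at p under 0.05 against 7.95%, and 0 at an FDR of 5%, and the median was 0.64. Without IMN administered *Brd1*+/- mouse 2 the median was 0.29, with 1 member at p under 0.01 (against 1.41% of all genes) and 2 at p under 0.05 (5.59%). The count at p under 0.05 was also 2 without vehicle administered mouse 1, 3, 4 or 5 or IMN administered mouse 4, 7 or 8 (between 5.97% and 7.37% of all genes), and 8 without vehicle administered mouse 2 (7.35%). It was 13 with cortical markers as a covariate (against 8.31% of all genes), 6 with quality weights (7.92%) and 2 in 1 fit of all groups (5.06%).

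**Figure D4:**
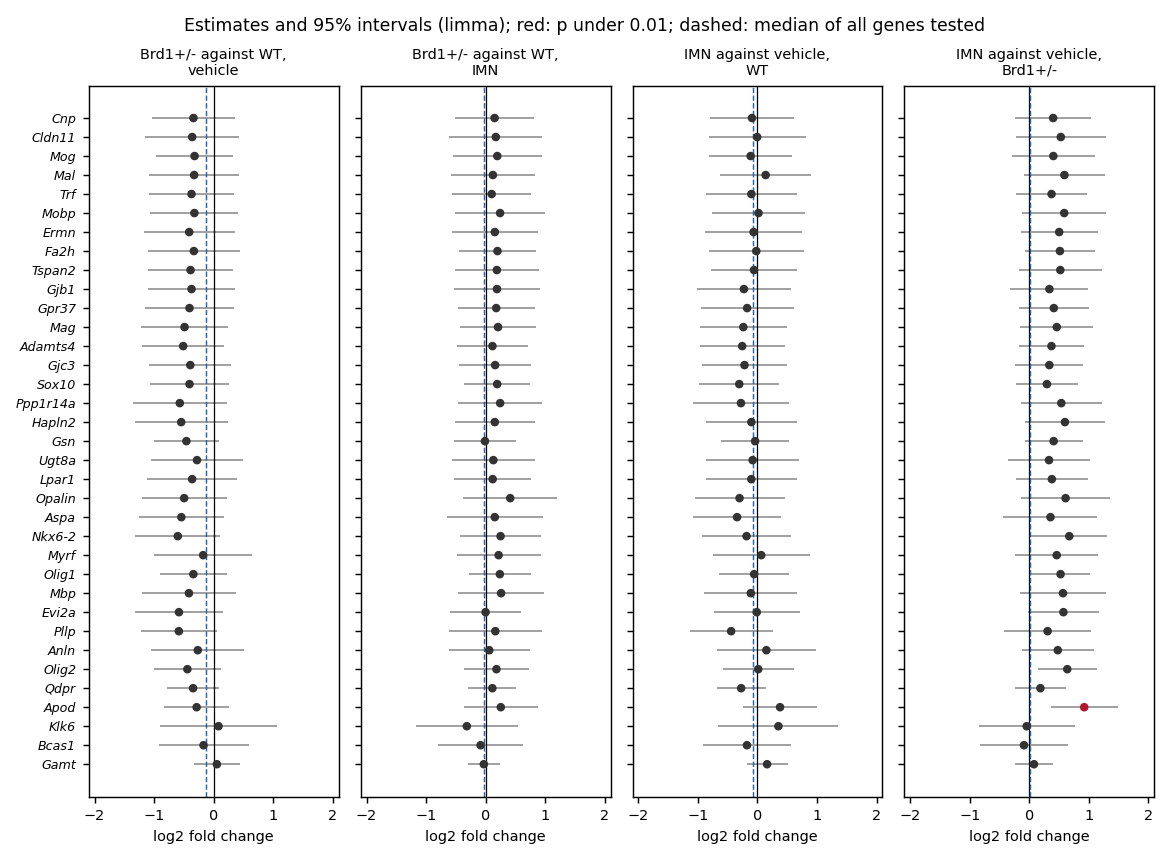
Log2 fold change (horizontal axes) of each member in 4 comparisons, with 95% intervals from limma; the dashed line is the median of all genes tested. *Apod* from vehicle to IMN in *Brd1*+/- mice (red, 0.92) is the 1 estimate at p under 0.01, and the estimates of most other members lie on 1 side of 0 within a comparison while their intervals cross it.

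Of related genes in *Brd1*+/- mice, none of 47 other oligodendrocyte genes passed p under 0.01 and 9 were higher at p under 0.05 (median 0.32), against 3.67% of all genes. *Sox8*, a transcription factor related to Sox10 (0.25 ± 0.09, limma adjusted p = 0.568), and *Plekhb1* (0.60 ± 0.24, limma adjusted p = 0.644) had the smallest p. The mean of this list had r = 0.976 with the members' mean, so its count is not separate from that of the members. Of 32 lipid synthesis genes *Mvd* fell with IMN (−0.51 ± 0.14, limma adjusted p = 0.408), and the list median was 0.00. No precursor gene (median 0.09) or axonal partner (median −0.05) was called at p under 0.01. Of the markers of neurons in the same comparison, all 10 striatal markers had estimates below 0 (median −0.19), with 1 lower at p under 0.01 and 4 at p under 0.05. Cortical markers had a median of −0.10, with 0 of 10 at p under 0.05 and no mouse above the cutoff. The part of these cells in the members' estimates was not tested.

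No member passed the test for a response to IMN that differs between the genotypes. For the interaction of genotype and IMN over all 31 mice, limma called 0 members at p under 0.01 against 3.74% of 25394 genes, 0 at an unadjusted p under 0.05 against 16.2%, and 0 at an FDR of 5% against 0%. Without IMN administered *Brd1*+/- mouse 6, 6 members passed p under 0.05, against 16.2% of all genes. Quality weights gave 3 at that threshold (26.3% of all genes), and leaving out vehicle administered WT mouse 6 gave 1 (22.1%). The members' median of the difference (*Brd1*+/- minus WT) was 0.56, with 33 above 0, beside 0.09 over all genes. When single mice were left out it ran from 0.32 (without vehicle administered WT mouse 1) to 0.74 (without IMN administered *Brd1*+/- mouse 6). With cortical markers as a covariate it was 0.23. *Nkx6-2* (0.85 ± 0.49, interval −0.14 to 1.85, limma adjusted p = 0.377), *Opalin* (0.91 ± 0.53, interval −0.17 to 1.99, limma adjusted p = 0.385) and *Olig2* (0.62 ± 0.39, interval −0.16 to 1.41, limma adjusted p = 0.415) had the smallest p. With cortical markers as a covariate these were 0.51, 0.51 and 0.31, and without the mice of high cortical markers 0.28, 0.35 and 0.14. For *Apod* the difference was 0.54 ± 0.41 (limma adjusted p = 0.515). Without the 8 mice of high cortical markers the members' median was 0.14 and that of all genes −0.01. Of related genes *Tmeff2* (0.68 ± 0.23), *Sulf2* (1.34 ± 0.44), *Cacng4* (−1.09 ± 0.38) and *Smpd1* (0.45 ± 0.15) passed p under 0.01, each with an adjusted p of 0.261. In the same fit all 10 striatal markers were below 0 at p under 0.05 (median −1.62). All 10 cortical markers were above 0 (median 1.95), 3 of them at p under 0.05. At that threshold 934 of all genes tested were lower and 3185 higher. The part of these cells in the members' estimates was not tested.

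The level of *Apod* was also set against the mean of all 35 members, *Apod* included, in the same mouse. Its log2(TPM + 1) minus that mean averaged 1.57 ± 0.37 for WT (SD, n = 8) and 1.66 ± 0.47 for *Brd1*+/- mice (n = 7) under vehicle, and 2.04 ± 0.29 and 2.15 ± 0.19 (n = 8 each) under IMN. The ranges were 0.96 to 2.09 and 1.07 to 2.28 under vehicle and 1.41 to 2.36 and 1.94 to 2.51 under IMN, so the groups overlapped. In a fit chosen after these values were seen, with the mean of the other oligodendrocyte genes as a covariate, *Apod* was higher with IMN by 0.59 ± 0.14 in WT mice (limma adjusted p = 0.177) and by 0.56 ± 0.18 in *Brd1*+/- mice (limma adjusted p = 0.561). The interaction was −0.02 ± 0.23 (limma adjusted p = 0.986) and the genotype difference 0.07 ± 0.18 under vehicle and 0.12 ± 0.12 under IMN. The 2 IMN comparisons share no mice. In the same fits the count of members at p under 0.01 was 4 for IMN in WT (*Apod*, *Evi2a*, *Mal* and *Myrf*) against 5.63% of genes, 2 for IMN in *Brd1*+/- mice (*Apod* and *Olig2*) against 1.72%, and 1 each for genotype under vehicle (*Myrf*, against 4.39%), genotype under IMN (*Opalin*, against 0.883%) and the interaction (*Mal*, against 1.45%). As *Apod* is also made outside the lineage, its r with astrocyte markers was 0.537 and with fibroblast and meningeal markers 0.141, beside 0.767 with the other oligodendrocyte genes. The 10 fibroblast and meningeal markers summed to a median of 156 TPM (range 119–631) in *Brd1*+/- mice under vehicle and 343 TPM (139–753) under IMN, of which *Ptgds*, also made by oligodendrocytes, had means of 175 and 331 TPM (1.09 ± 0.42, limma adjusted p = 0.613). On the log2 scale 8 of the 10 had estimates below 0 there (median −0.11), with 1 higher and 2 lower at p under 0.05. The part of other cell types in the difference of *Apod* was not tested.

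**Figure D5:**
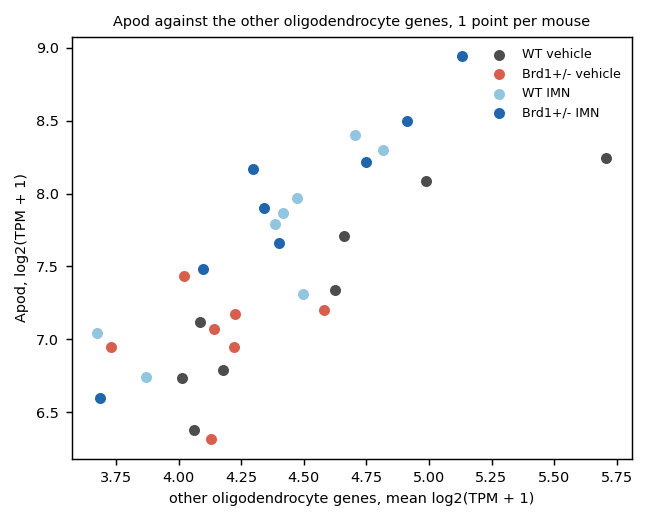
*Apod* (vertical axis, log2(TPM + 1)) against the mean log2(TPM + 1) of the other oligodendrocyte genes (horizontal axis), 1 point per mouse, coloured by group. At a given level of the other genes the IMN administered mice (blue) lie mostly above the vehicle administered ones (grey and red), and the 4 groups overlap.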

How the data were processed

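RNA from CPu punches was sequenced on the BGISEQ-500 as single-end reads. The authors used HISAT2 2.1.0 for alignment to GRCm38 and deposited TPM per gene from StringTie 1.3.4. TPM have the same sum in every mouse, and read counts cannot be recovered from them. The paper gives a minimum number of reads per sample but not the depth of each mouse, so precision rests on the spread between mice. Groups came from the sample labels, and 0 columns were left unused. Symbols came from GENCODE M21 (52403 of 52636 identifiers), and 1 erythrocyte marker did not match.

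Fits used limma 3.58.1 on log2(TPM + 1), 2 groups at a time (all mice for the interaction), with empirical Bayes moderation that follows mean level. Genes entered if 7 or more of the fitted mice exceeded 0.1 TPM. Tests were two-sided, at p under 0.01 and at a Benjamini-Hochberg FDR of 5%. Exact permutation tests of single members over the mice (6435 or 12870 regroupings), unadjusted, were added after seeing the data. A check on simulated data preceded the fits, and edgeR was not used, since it needs counts. Members given with full statistics were those at p under 0.01 and the 3 of smallest p per comparison; *Nkx6-2*, *Mobp*, *Mbp* and *Gamt* were added elsewhere after their values were seen. From each related list the 2 of smallest p are named, and others only where 5 or fewer were called. The members and lists were chosen with earlier results of these data known. Alternatives were a pseudocount of 0.1, a minimum mean of 1 TPM, no filter, median-of-ratios and quantile scaling, no trend, quality weights, a cortical marker covariate, the mouse number as block, 1 fit of all groups, and omission of single mice. The other oligodendrocyte covariate and the omission of mice of high cortical markers were added after seeing the data. Promoters of 9 members were not used (*Mbp*, *Bcas1*, *Fa2h*, *Sox10*, *Olig1*, *Myrf*, *Evi2a*, *Adamts4*, *Trf*).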

Additional observations from a re-analysis of the deposited data

Results flagged for a closer look

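1 value stood apart from the other mice of its group by Dixon's test. *Gamt* was at 39.4 TPM in IMN administered WT mouse 2, where the next mouse of the group was at 31.1 TPM, a gap of 0.592 of the group's range against a critical value of 0.526. This was 1 flag among 144 sets of values tested, where chance alone flags about 1 in 20. The members' mean of that mouse ranked 7th of 31.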

How the results depend on the processing

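Over the other planned settings that kept all mice, the count of members at p under 0.01 was 0 for genotype under vehicle, genotype under IMN, IMN in WT and the interaction. For IMN in *Brd1*+/- mice it was 1 to 2, and 2 when cortical markers were a covariate (*Olig2* added, at 0.68). That covariate took the members' median from −0.37 to −0.13 (genotype under vehicle), from −0.10 to 0.16 (IMN in WT) and from 0.56 to 0.23 (interaction); the cause was not tested. *Apod* in *Brd1*+/- mice ranged from 0.91 to 0.96 over these 10 settings and stayed at p under 0.01. With each mouse left out in turn the count for IMN in *Brd1*+/- mice ran from 1 to 10, the 10 arising without IMN administered *Brd1*+/- mouse 6, and was 0 in the other comparisons. With the other oligodendrocyte covariate, added after seeing the data, the counts were 1 (genotype under vehicle, against 4.39% of all genes), 1 (genotype under IMN, against 0.883%), 4 (IMN in WT, against 5.63%), 2 (IMN in *Brd1*+/-, against 1.72%) and 1 (interaction, against 1.45%), and the members' medians were 0.19, 0.02, 0.18, −0.05 and −0.18 in that order. Without the mice of high cortical markers, added likewise, the signs turned for *Pllp* (0.13) and *Nkx6-2* (0.0868) between genotypes under vehicle. The signs also turned for *Qdpr* (0.13) and *Pllp* (0.19) with IMN in WT, where 2 vehicle administered WT mice remained; the cause was not tested. The median ratio of highest to lowest mouse was 6.99 after median-of-ratios scaling. The depth of each mouse is not known beyond the minimum the paper gives, so low members such as *Klk6* carry an unstated counting error.

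With the mouse number as a replicate block, the count for IMN in *Brd1*+/- mice was 2 (*Olig2* added, at 0.65), and no other count changed. Same-numbered mice correlated above 0.1 in 1 of 7 pairs (genotype under vehicle), 2 of 8 (genotype under IMN), 2 of 8 (IMN in WT) and 3 of 7 (IMN in *Brd1*+/-). Differently numbered mice were not compared, so whether same-numbered mice share more than a number was not tested.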
